A study of Mus musculus with 10 samples.

Results

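The mouse keratin genes encode the intermediate filament proteins of epithelial cells. Protein-coding genes with a symbol made of Krt, digits and at most 1 letter were taken from GENCODE M21 on the build GRCm38, which gave 53 keratin genes among the 47069 gene IDs counted in each tumour. Of these, 28 encode type I and 25 type II keratins. The pseudogenes Krt74 and Krt8-ps were left out by this rule. RNA was sequenced from 10 tumours grown after injection of cells of a mouse prostate cancer line into an anterior prostate lobe of male CD-1 Nude mice, a strain without a normal thymus. The line P1 (3 tumours) was derived from a prostate tumour of a mouse of 14 months. The lines CP1 (3 tumours) and CP2 (4 tumours) were derived from prostate tumours of mice of 6 and 8 months that carry, on 1 allele, a Ctnnb1 exon deletion known to stabilise beta-catenin. The genotypes of P1 and of CP1 and CP2 differ beyond this deletion, and line, genotype and donor age cannot be told apart. Each group is 1 line, so the comparisons are between lines. The tumours can also hold cells of the host's prostate and stroma, and the sources used here do not give the promoter that drove deletion in the donors.

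Keratins work in pairs. A type I chain joins a type II chain, the pairs build filaments, and plakins tie the filaments to desmosomes and hemidesmosomes. Simple epithelia such as the luminal layer of the prostate carry Krt8 with Krt18, joined by Krt7 and Krt19, whereas basal cells carry Krt5 with Krt14 and often Krt15. Other pairs belong to stratified layers above the basal cells, to wounded skin, or to the hair follicle and its shaft. Nearly all type I genes lie in a cluster on chromosome 11 and the type II genes in a cluster on chromosome 15, where the type I gene Krt18 sits beside Krt8.

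The sequences upstream of 6 keratin genes are shown because the comparisons below turn on them: Krt20 for the simple keratins lower in both CP lines, Krt5 for the basal keratins high in some CP1 tumours, Krt33b and Krt36 for the hair keratins higher in both CP lines, and Krt42 and Krt90 for the difference between CP2 and CP1. Each runs 5′ to 3′ over the 150 bases before the RefSeq start site on GRCm38.p6, and all 6 genes lie on the minus strand. Capitals mark TATAAA, the core of the TATA box, or CTTTGAT, a form of the TCF/LEF site, on either strand. The windows are chr11:99438154-99438303 for Krt20, chr15:101712906-101713055 for Krt5, chr11:100029869-100030018 for Krt33b, chr11:100105627-100105776 for Krt36, chr11:100269952-100270101 for Krt42 and chr15:101562951-101563100 for Krt90. The RefSeq start of Krt42 lies 80 bases outside the GENCODE gene, and those of the others at most 7 bases from its start.
Krt20: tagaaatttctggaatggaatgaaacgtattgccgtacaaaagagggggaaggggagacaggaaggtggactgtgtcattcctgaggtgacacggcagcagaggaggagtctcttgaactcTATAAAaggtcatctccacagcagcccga
Krt5: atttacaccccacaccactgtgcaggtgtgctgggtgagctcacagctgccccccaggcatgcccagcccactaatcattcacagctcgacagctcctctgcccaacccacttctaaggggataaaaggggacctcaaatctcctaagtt
Krt33b: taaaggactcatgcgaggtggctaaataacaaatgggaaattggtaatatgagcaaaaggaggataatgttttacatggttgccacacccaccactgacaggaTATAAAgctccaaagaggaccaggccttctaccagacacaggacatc
Krt36: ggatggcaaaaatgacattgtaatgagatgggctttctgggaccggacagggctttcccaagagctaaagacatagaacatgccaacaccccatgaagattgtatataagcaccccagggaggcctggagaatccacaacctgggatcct
Krt42: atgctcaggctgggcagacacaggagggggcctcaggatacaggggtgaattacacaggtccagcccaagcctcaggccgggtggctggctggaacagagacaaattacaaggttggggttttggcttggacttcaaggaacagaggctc
Krt90: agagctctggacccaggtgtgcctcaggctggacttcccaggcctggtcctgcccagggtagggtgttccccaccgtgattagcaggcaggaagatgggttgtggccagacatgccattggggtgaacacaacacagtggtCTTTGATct
Over windows from 250 bases before to 50 bases after the start, RefSeq listed 37 windows for 36 of the 53 keratins. TATAAA was found in 51.4% of them and in 13.6% of 32851 windows of all genes, counting both strands. GGGCGG, the GC box, was found in 5.41% of keratin windows and 35.7% of all. CTTTGAT was found in 5.41% and 3.73%, and TGANTCA, the AP-1 site, in 5.41% and 7.81%. None of the 4 motifs contains another. A match describes the letters and not a bound site.

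Libraries held 18800912 to 37180721 counts, with CP2 the shallowest at 18800912 to 20638085, and 3 counts corresponded to 0.0924 CPM in the deepest and 0.154 CPM in the shallowest. Levels are in CPM, counts scaled to the same library size with TMM factors. CP2 replicate 1 is titled as a CP1 tumour but labelled CP2 by tissue and source, and it was kept in CP2. Its log2 CPM correlated on average at 0.984 with those of CP2, at 0.912 with those of CP1 and at 0.842 with those of P1. Nothing in the labels ties each tumour to its own animal, so p-values measure the spread between these samples, which may be technical. Transcripts used as markers of neighbouring organs varied with the tumour, and their source was not tested. In P1 replicates 1, 2 and 3 the 8 seminal vesicle genes held 14.9%, 6.85% and 1.79% of all counts. They held at most 0.00273% in CP1 and 0.15%, 0.00157%, 0.000359% and 0.168% in CP2 replicates 1 to 4. These genes did not move together in P1. Replicate 2 had 46081 CPM of Svs2, 11572 of Svs5, 7676 of Pate4 and 4365 of Svs4. It had 14.4 CPM of Svs1, 38.1 of Svs6, 3.37 of Svs3a and 1.87 of Svs3b. The 10 urothelium genes summed to 201 to 239 CPM in P1, to 248, 1663 and 810 CPM in CP1 replicates 1, 2 and 3, and to 141 to 177 CPM in CP2. The 7 epithelium genes, Epcam and Cdh1 among them, summed to 2729 to 3437 CPM in P1, 94.2 to 324 CPM in CP1 and 43.0 to 72.1 CPM in CP2. Of the prostate markers, Pbsn, a secreted prostate protein, had 388, 119 and 1394 CPM in P1, 379, 1.07 and 0.61 CPM in CP1, and 0.05 to 12.0 CPM in CP2. Prostate genes (6) summed to 692 to 2033, 385 to 638 and 364 to 689 CPM in P1, CP1 and CP2, and fibroblast genes (6) to 4792 to 9489, 15113 to 23548 and 7636 to 9435 CPM. Mesothelium genes (5 of 6 matched) summed to 841 to 1842, 88.8 to 508 and 11.8 to 59.0 CPM, and immune genes (5) to 197 to 254, 162 to 263 and 197 to 317 CPM.

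P1 tumours carried far more keratin RNA than tumours of either CP line. All 53 genes together summed to 8493, 11433 and 18337 CPM in P1, 861, 2658 and 2082 CPM in CP1, and 663, 708, 602 and 575 CPM in CP2. The 3 lines did not overlap. In P1 the 4 genes Krt7, Krt8, Krt18 and Krt19 held 94.1% to 95% of all keratin counts. Their share was 61.8% to 81.0% in CP1 and 31.8% to 58.3% in CP2, so the minor keratins formed a larger part of a smaller total there. A filter on low counts kept 29 of the 53 genes. Of the 24 removed, Krt40 and Krt82 had no count in any tumour, and the highest value of the rest was 1.13 CPM, for Krt27 in CP2 replicate 2. The 24 included 9 of 15 hair shaft, 6 of 9 inner root sheath and companion layer, and 6 of 11 suprabasal keratins, and none of the simple epithelial or basal ones. Of the 29, 28 reached a mean of 1 CPM in at least 1 line, Krt31 being the exception.

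**Figure D1:**
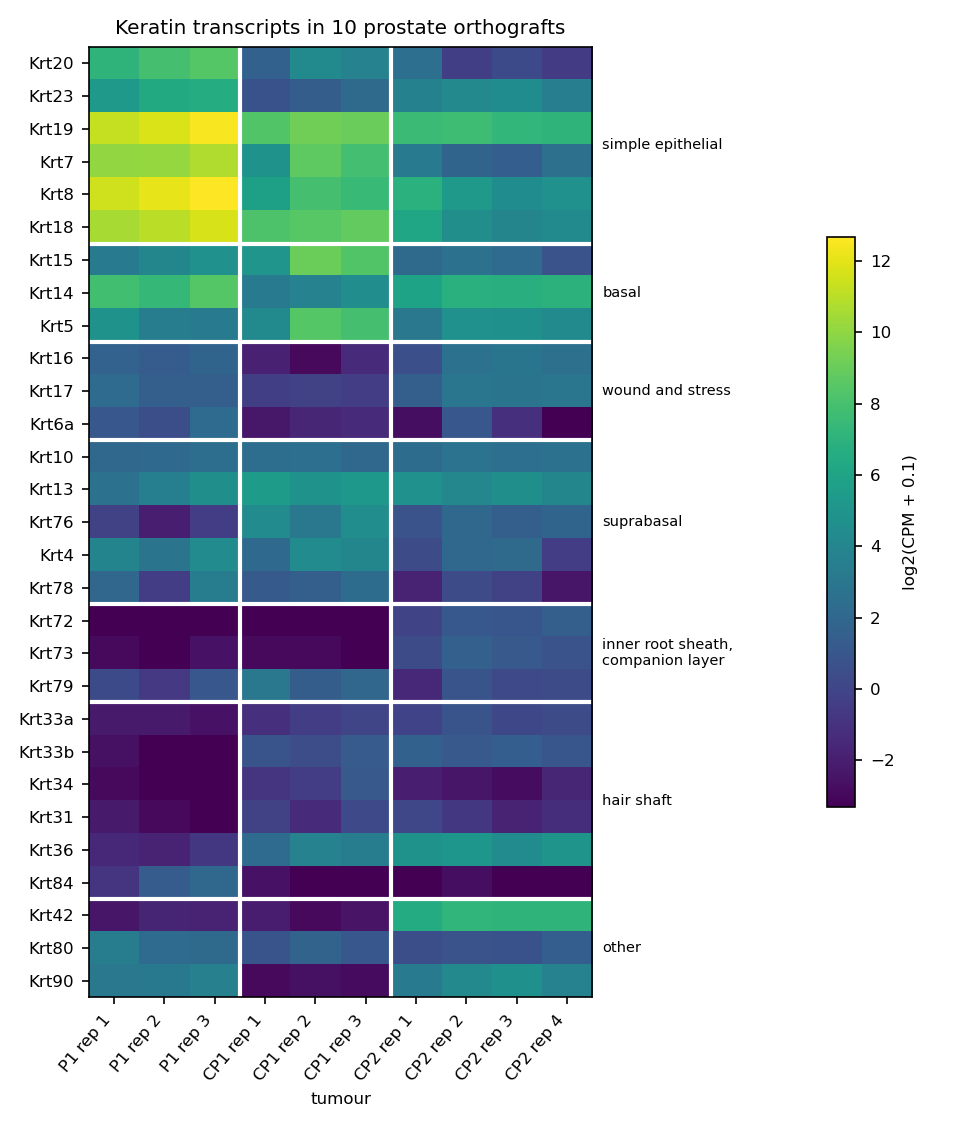
Level of the 29 tested keratins, as log2(CPM + 0.1), in each of the 10 tumours, ordered by class and with white lines between lines and classes. The simple epithelial block is brightest in P1, and Krt42 goes from at most 0.22 CPM in P1 and CP1 to 93.3 CPM or more in CP2.

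Of the 29 keratins tested, 10 were called higher and 13 lower in CP1 than in P1. A gene was called at an adjusted p below 0.05 in a single fit over all 10 tumours and 17644 genes. The keratin shares were 34.5% and 44.8%, against 22.4% of all genes higher and 22.4% lower. In CP2 against P1, 9 keratins were higher and 12 lower, or 31.0% and 41.4%, against 28.3% and 28.4% of all genes. In CP2 against CP1, 9 were higher and 11 lower, or 31.0% and 37.9%, against 21.3% and 21.9% of all genes. The median log2 fold change of the 29 was -0.59, 0.33 and -0.52 in these comparisons, and that of all genes was -0.0101, 0.00158 and -0.00526. The comparisons of CP1 and CP2 with P1 share the P1 tumours. Krt10, the type I keratin of epidermal layers above the basal cells, was called in none of the 3, at 3.97 to 5.48 CPM in P1, 4.17 to 5.55 CPM in CP1 and 5.04 to 6.58 CPM in CP2. A filter that lets a gene in through its high group favours calls, so the shares describe the 29 and not all 53 genes. The count of 10 higher in CP1 was 6 without CP1 replicates 2 and 3, which hold most urothelium transcripts, and 6 without P1 replicates 1 and 2, which hold most seminal vesicle transcripts. The 11 lower in CP2 than in CP1 were 5 without CP1 replicates 2 and 3.

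All 6 simple epithelial keratins fell in both CP lines, against 22.4% of all genes lower in CP1 and 28.4% in CP2. Krt8, the type II keratin of simple epithelia, had 2910, 4238 and 6523 CPM in P1, 54.9, 253 and 172 CPM in CP1, and 118, 39.7, 22.1 and 26.7 CPM in CP2. P1 lay far above the rest, while CP2 replicate 1 lay within the CP1 range. Krt8 fell in CP1 (log2 -4.83 ± 0.80 SE, adjusted p = 7.973e-04) and in CP2 (-6.47 ± 0.76, adjusted p = 6.649e-05), or -7.27 without CP2 replicate 1. CP2 minus CP1 was -1.64 ± 0.64 and not called (adjusted p = 0.0626), but it was called at -2.44 without CP2 replicate 1 (adjusted p = 0.00772) and at -2.04 without CP1 replicate 1 (adjusted p = 0.0261). Krt8 shares 26.9% of its 50-base words with the pseudogene Krt8-ps, for which no counts were used here, and overlaps Gm36026 on the opposite strand, so which of its reads were counted is uncertain.

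Krt18, the type I partner of Krt8, had 1499, 2026 and 3280 CPM in P1, 295, 370 and 449 CPM in CP1, and 68.7, 24.1, 15.5 and 19.6 CPM in CP2. The lines formed 3 separate steps. It fell in CP1 (log2 -2.61 ± 0.54, adjusted p = 0.0031) and in CP2 (-6.15 ± 0.57, adjusted p = 1.396e-05). CP2 lay below CP1 by a further log2 -3.54 ± 0.51 (adjusted p = 4.608e-04). Without CP2 replicate 1 these CP2 values were -6.84 and -4.23.

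Krt19, a small type I keratin of simple and ductal epithelia, had 2485, 3469 and 5853 CPM in P1, 320, 600.1 and 510 CPM in CP1, and 190, 208, 151 and 134 CPM in CP2. It was the keratin with the highest mean level per kilobase of transcript in each line. Krt19 fell in CP1 (log2 -3.05 ± 0.35, adjusted p = 8.669e-05) and in CP2 (-4.53 ± 0.34, adjusted p = 3.849e-06), with CP2 below CP1 at log2 -1.48 ± 0.31 (adjusted p = 0.0035). Without CP1 replicates 2 and 3 this last difference was -0.91 and not called (adjusted p = 0.146). Without P1 replicates 1 and 2 the falls of Krt19 were -3.65 and -5.13.

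Krt7, the type II keratin of ducts and urothelium, spread widely within CP1. It had 1098, 1127 and 1752 CPM in P1, 27.9, 418 and 242 CPM in CP1, and 10.1, 3.39, 2.69 and 5.77 CPM in CP2. The highest CP1 value belonged to replicate 2, which also had the most urothelium transcripts, and the lowest to replicate 1, which had the least; their part in the Krt7 values was not tested. Krt7 fell in CP2 (log2 -7.92 ± 0.89, adjusted p = 5.015e-05) and in CP1 (-2.53 ± 0.79, adjusted p = 0.0246). The CP1 call was lost without CP1 replicate 3 (-2.57, adjusted p = 0.067) or P1 replicate 3 (-2.29, adjusted p = 0.0605), without P1 replicates 1 and 2 (-2.96, adjusted p = 0.0573) and in a fit of P1 and CP1 alone (-2.55, adjusted p = 0.0538). The fall in CP1 was -3.29 without CP1 replicate 2 and -5.57 without CP1 replicates 2 and 3. CP2 lay below CP1 by log2 -5.39 ± 0.81 (adjusted p = 5.827e-04), or by -4.63 without CP1 replicate 2 and -2.36 without CP1 replicates 2 and 3.

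Krt20, a type I keratin of gut epithelium and of the umbrella cells that line the bladder, had 134, 248 and 353 CPM in P1, 3.00, 18.8 and 13.6 CPM in CP1, and 5.60, 0.69, 1.10 and 0.61 CPM in CP2. CP1 replicate 1 lay below CP2 replicate 1, so the CP lines overlapped. It fell in CP1 (log2 -4.37 ± 0.84, adjusted p = 0.0019) and in CP2 (-6.96 ± 0.87, adjusted p = 9.427e-05), or -8.25 without CP2 replicate 1. CP2 minus CP1 was -2.58 ± 0.79 (adjusted p = 0.0246). That call was lost without CP1 replicate 2 (-2.07) or 3 (-2.48) and without CP2 replicate 2 (-2.30), 3 (-2.38) or 4 (-2.28), and the difference was -3.88 without CP2 replicate 1. Without CP1 replicates 2 and 3 it was -0.62 (adjusted p = 0.713).

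Krt23, a type I keratin that stress induces in liver cells, was the simple keratin called higher in CP2 than in CP1. It had 39.3, 85.7 and 97.1 CPM in P1, 1.55, 2.57 and 4.42 CPM in CP1, and 13.2, 18.7, 21.4 and 11.5 CPM in CP2. CP2 thus lay between P1 and CP1 with no overlap. Krt23 fell in CP1 (log2 -4.71 ± 0.47, adjusted p = 3.593e-05) and in CP2 (-2.19 ± 0.38, adjusted p = 7.348e-04), and CP2 stood above CP1 by log2 2.52 ± 0.43 (adjusted p = 0.0012).

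**Figure D2:**
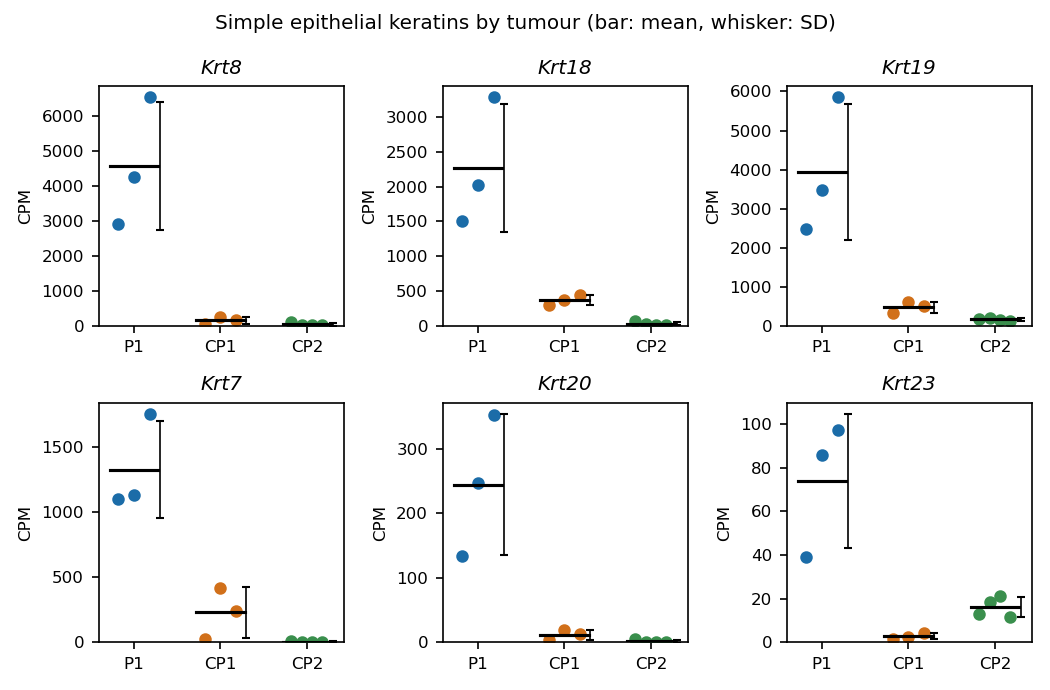
Level (CPM) of the 6 simple epithelial keratins in each tumour, by line, with the mean (bar) and SD (whisker) over 3, 3 and 4 tumours and a separate linear axis for each gene. Every P1 tumour lies above every CP1 and CP2 tumour in all 6 panels, and Krt23 alone is higher in CP2 than in CP1.

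Within P1 these genes ranked the tumours alike, with the least in replicate 1 and the most in replicate 3 for each of the 6. By the sum of the seminal vesicle genes, replicate 1 also had the most and replicate 3 the least. All 6 simple keratins were thus highest in the P1 tumour with the lowest such sum. Svs2, Svs5 and Pate4 were lowest in replicate 3, but Svs1, Svs3a, Svs3b, Svs4 and Svs6 were lowest in replicate 2. The fall of the simple keratins went with that of the epithelium markers. Of these, 6 of 7 were lower in CP1 and 7 of 7 in CP2, against 22.4% and 28.4% of all genes. Epcam, an adhesion protein of epithelial cells, had 862 to 1282 CPM in P1, 15.6 to 31.4 CPM in CP1 and 8.44 to 16 CPM in CP2. Cdh1, which encodes E-cadherin, had 1303 to 1549, 25.1 to 102 and 16.8 to 35.5 CPM. In bulk tissue, fewer epithelial cells and less RNA per cell cannot be told apart. Of 6 fibroblast markers, 2 were higher and 0 lower in CP1 than in P1, against 22.4% of all genes in each direction. In CP2, 3 were higher (Pdgfra, Col3a1 and Dcn, at log2 2.22, 1.53 and 1.46). The other 3 were lower (Col1a1, Col1a2 and Lum, at -0.83, -1.52 and -1.31). The shares of all genes there were 28.3% higher and 28.4% lower. The part of the fibroblast markers in the keratin levels was not tested.

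Of the 3 basal keratins, 2 were higher and 1 lower in CP1 than in P1, against 22.4% of all genes in each direction. None was higher and 2 were lower in CP2 than in P1, against 28.3% and 28.4% of all genes. Krt5, the type II keratin of basal cells, had 28.7, 10.5 and 9.89 CPM in P1, 20.0, 353 and 243 CPM in CP1, and 8.48, 27.4, 26.3 and 20.0 CPM in CP2. Krt15, a type I keratin of basal cells, had 9.30, 16 and 26.6 CPM in P1, 32.3, 538 and 316 CPM in CP1, and 4.47, 6.14, 4.75 and 1.58 CPM in CP2. In both, CP1 replicates 2 and 3 stood far above all other tumours and CP1 replicate 1 was close to P1. Krt5 rose in CP1 by log2 3.65 ± 0.90 (adjusted p = 0.0080) and Krt15 by 4.10 ± 0.88 (adjusted p = 0.0037). Without CP1 replicate 2 these were 3.01 and 3.33, and without P1 replicate 1 Krt5 was 4.31. Neither was called without CP1 replicates 2 and 3, at 0.29 for Krt5 and 0.90 for Krt15. The same held without P1 replicates 1 and 2, at 4.35 for Krt5 and 3.44 for Krt15. Each of these fits leaves 1 tumour in a group.

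The 5 genes Upk1a, Upk1b, Upk2, Upk3a and Snx31 of the bladder lining moved with Krt5 and Krt15 across the CP1 tumours. Their sum was 55.2, 1291 and 516 CPM in CP1 replicates 1, 2 and 3, 17.1 to 47.5 CPM in P1 and 1.72 to 9.08 CPM in CP2. Of the whole list of 10 urothelium markers, 8 were higher in CP1 than in P1 and 0 lower, against 22.4% of all genes in each direction. Among these 8, Upk3a, Snx31 and Grhl3 passed the filter on low counts through the CP tumours, so their direction was largely set by it. In CP1 none of the list was at 0 counts. Krt20, which marks umbrella cells, had the same order across the CP1 tumours, at 3.00, 18.8 and 13.6 CPM, and all 3 lay below P1. Trp63, a transcription factor of basal cells, had 2.41 to 8.75 CPM in P1, 4.66, 41.0 and 29.4 CPM in CP1, and 2.97 to 5.07 CPM in CP2, and was higher in CP1 than in P1 (log2 2.19 ± 0.68, adjusted p = 0.024). The part of bladder tissue in the levels of Krt5, Krt15, Krt7 and Krt20 was not tested.

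**Figure D3:**
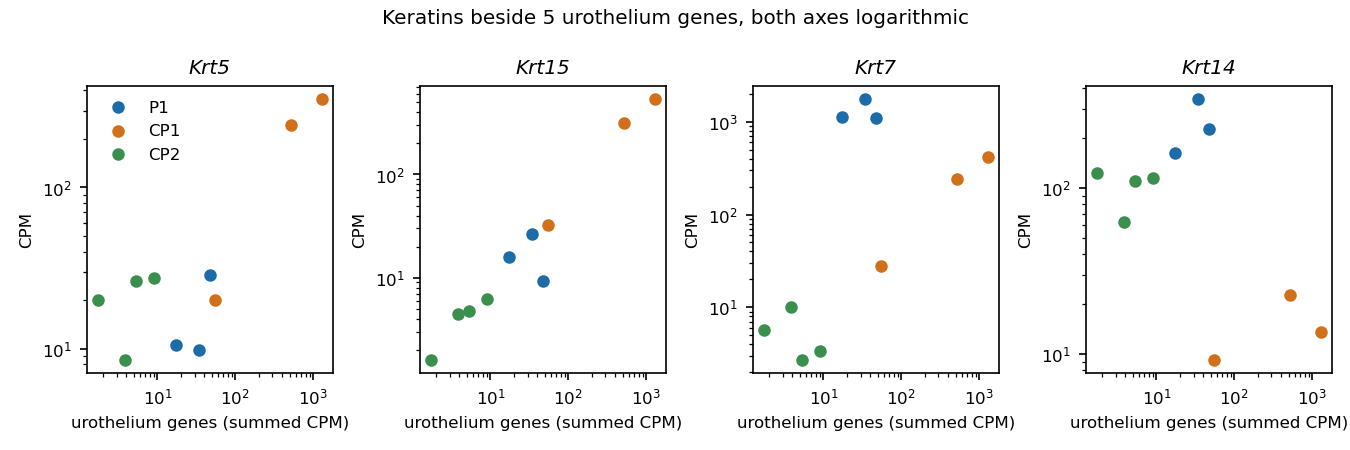
Level of Krt5, Krt15, Krt7 and Krt14 (CPM) against the summed level of 5 urothelium genes (CPM), 1 point per tumour coloured by line, with logarithmic axes. CP1 replicates 2 and 3 are the 2 points at 516 and 1291 CPM on the horizontal axis, where Krt5 and Krt15 are highest and Krt14 is not.

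Krt14, the type I partner of Krt5, did not follow Krt5. It had 228, 164 and 345 CPM in P1, 9.19, 13.6 and 22.6 CPM in CP1, and 62.9, 116, 111 and 123 CPM in CP2. The 3 lines were separate, with CP2 in the middle. Krt14 fell in CP1 (log2 -4.02 ± 0.41, adjusted p = 4.166e-05) and in CP2 (-1.25 ± 0.34, adjusted p = 0.0101), and CP2 stood above CP1 by log2 2.77 ± 0.38 (adjusted p = 3.673e-04). Against this, CP2 was below CP1 for Krt15 (log2 -6.13 ± 0.87, adjusted p = 4.296e-04) and for Krt5 (-3.32 ± 0.80, adjusted p = 0.0078). Without CP1 replicate 2 these were -5.36 and -2.68, and without CP1 replicates 2 and 3 Krt15 remained lower at -2.93 (adjusted p = 0.00961) while Krt5 stood at 0.04 (adjusted p = 0.979). Krt15 was also lower in CP2 than in P1 (log2 -2.03 ± 0.78, adjusted p = 0.0481), a call lost in 7 of the 10 fits that left out a tumour, at -1.59 to -2.26. Krt5 in CP2 minus P1 was 0.33 ± 0.78 (adjusted p = 0.741).

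The wound and stress keratins had their lowest means in CP1, where 3 of 3 tested were lower than in P1, against 22.4% of all genes. Of the same 3, none was called in CP2 against P1. In CP2, 2 of them were higher than in CP1, against 21.3% of all genes. Krt6a, with 234, 17 and 48 counts in P1, CP1 and CP2, passed the filter on low counts through P1. Krt16, with 13 counts in CP1, passed it through P1 and CP2. Their directions in CP1 were thus largely set by the filter, and these counts of calls describe the genes and not the class. Krt16, a type I keratin that appears in wounded skin, had 3.11, 2.37 and 3.43 CPM in P1, 0.18, 0.03 and 0.28 CPM in CP1, and 1.39, 6.48, 7.21 and 5.91 CPM in CP2. Krt17, its neighbour and a keratin of injured and hair follicle epithelium, had 4.81, 2.78 and 2.74 CPM in P1, 0.67, 0.78 and 0.65 CPM in CP1, and 2.72, 7.66, 6.89 and 7.59 CPM in CP2. In both, CP1 lay below all other tumours, and CP2 replicate 1 lay below the other CP2 tumours. In CP1 against P1, Krt16 fell (log2 -4.19 ± 0.71, adjusted p = 9.545e-04, or -4.79 without CP1 replicate 3) and so did Krt17 (-2.29 ± 0.41, adjusted p = 0.0014). CP2 exceeded CP1 by log2 5.01 ± 0.71 for Krt16 (adjusted p = 4.260e-04), or 5.61 without CP1 replicate 3, and by 3.14 ± 0.41 for Krt17 (adjusted p = 2.685e-04). Against P1, the CP2 values of 0.82 ± 0.53 for Krt16 (adjusted p = 0.207) and 0.85 ± 0.36 for Krt17 (adjusted p = 0.066) were not called. Without CP2 replicate 1 they were called at 1.1 (adjusted p = 0.0329) and 1.10 (adjusted p = 0.00608), and without P1 replicate 1 Krt17 was called at 1.15 (adjusted p = 0.0325).

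Krt6a, a type II keratin of wounded epithelium, had 1.91, 1.31 and 4.75 CPM in P1, 0.11, 0.23 and 0.28 CPM in CP1, and 0.05, 1.91, 0.36 and 0 CPM in CP2. CP2 spread over the range of both other lines. Krt6a fell by 3.67 ± 1.18 in CP1 (log2, adjusted p = 0.0284), a call lost without CP1 replicate 1 (-3.37), 2 (-3.75) or 3 (-3.93) and without P1 replicate 3 (-2.96). In CP2 it was -2.18 ± 0.98 and not called (adjusted p = 0.0811), but it was called at -4.17 without CP2 replicate 2 (adjusted p = 0.00418). Krt6a shares 49.5% of its 50-base words with other genes, mostly Krt6b, and Krt16 shares 37.6%, so how counting split their reads is uncertain. Krt6b held 23, 1 and 4 counts in P1, CP1 and CP2 and was not tested.

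Krt42 had the highest fitted fold change of the tested keratins between CP2 and each other line. This type I gene, known in mice from the nail unit, had 0.09, 0.22 and 0.18 CPM in P1, 0.14, 0.03 and 0.08 CPM in CP1, and 93.3, 148, 134 and 134 CPM in CP2. The counts behind these values were 15 in P1, 7 in CP1 and 10647 in CP2. Krt42 thus passed the filter on low counts through CP2, so the direction of its change was largely set by it. CP2 exceeded P1 by log2 9.56 ± 0.31 (adjusted p = 1.477e-07) and CP1 by 10.49 ± 0.34 (adjusted p = 2.442e-07), and P1 and CP1 were not called different (-0.93 ± 0.59, adjusted p = 0.229). Krt42 shares 0.268% of its 50-base words with another gene, Krt17, whose level was at most 7.66 CPM. In CP2, Krt42 held the second place in level per kilobase, after Krt19.

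Krt14, Krt16, Krt17 and Krt42 stand in this order and next to one another at the end of the type I cluster on chromosome 11, from 100203162 to 100269871 on GRCm38. Each was called higher in CP2 than in CP1, against 21.3% of all genes. Whether they changed as a block was not tested. Of the next tested genes along the cluster, Krt19 and Krt15 were lower in CP2 than in CP1 (log2 -1.48 and -6.13). Krt13 was not called (-0.78), and Krt36 beyond it was higher (1.6). Krt14 shares 188 of its transcript words with Krt16 and 55 with Krt17, so how counting split their reads is uncertain. Against P1, Krt42 was higher in CP2, Krt14 was lower, and Krt16 and Krt17 were called higher only without CP2 replicate 1 (Krt17 also without P1 replicate 1).

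Krt90, a type II keratin gene on chromosome 15 from 101552356 to 101562950, was near 0 in CP1. It had 8.38, 8.64 and 12.4 CPM in P1, 0.04, 0.06 and 0.04 CPM in CP1, and 9.92, 18.4, 25.7 and 13.8 CPM in CP2. The CP1 values rest on 4 counts over the 3 tumours, whereas P1 and CP2 overlapped at 890 and 1427 counts. Krt90 thus passed the filter on low counts through P1 and CP2, so its direction in CP1 was largely set by it. It fell by 7.55 ± 0.52 in CP1 (log2, adjusted p = 3.854e-06), and CP2 exceeded CP1 by log2 8.34 ± 0.51 (adjusted p = 4.851e-06). CP2 exceeded P1 by 0.79 ± 0.30 (adjusted p = 0.0448), a call lost without CP1 replicate 1 (0.78), 2 (0.79) or 3 (0.79), without CP2 replicate 2 (0.75) or 3 (0.52) and without P1 replicate 1 (0.67) or 2 (0.68). It was lost with upper-quartile scaling too (0.74). The annotation places Gm44393 on the opposite strand across an exon of Krt90, and the sources used here do not say if strand entered the counting.

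**Figure D4:**
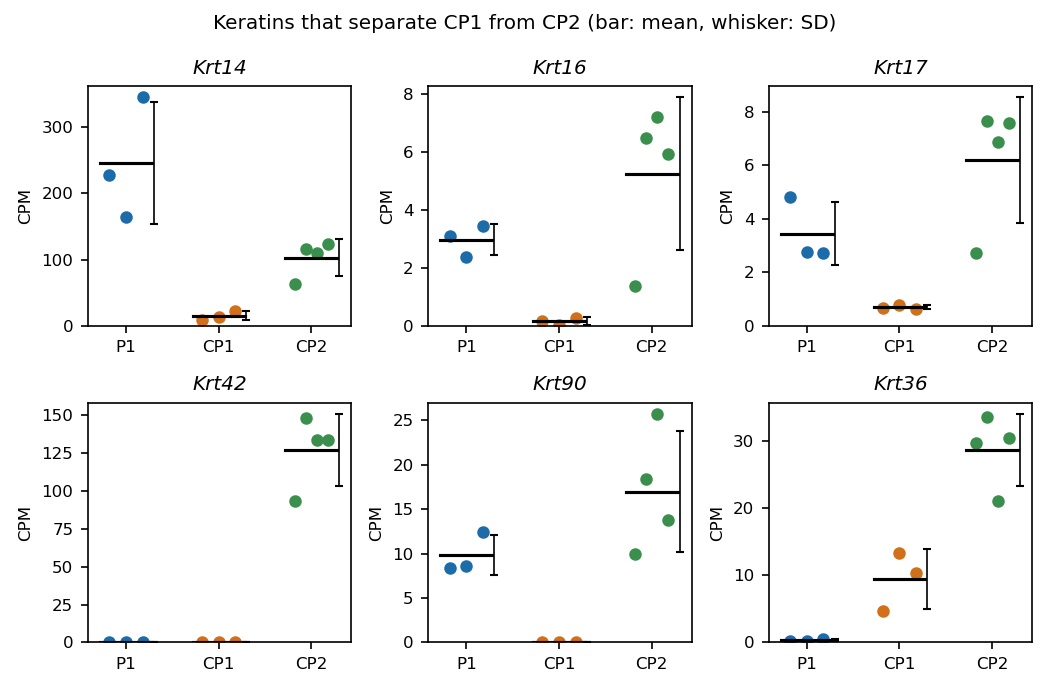
Level (CPM) of 6 of the 9 keratins called higher in CP2 than in CP1, in each tumour by line. Bars give the mean and whiskers the SD over 3, 3 and 4 tumours, with a separate linear axis for each gene. Krt42 is near 0 in P1 and CP1 and at 93.3 to 148 CPM in CP2. CP1 lies below CP2 in every panel by this choice of genes, and 11 tested keratins were called lower in CP2 than in CP1.

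Of the 15 hair shaft keratins, 9 failed the filter on low counts. Of the 6 tested, Krt31, Krt33a, Krt33b, Krt34 and Krt36 had 1 to 28 counts each in P1 and passed through the CP tumours. Krt84 had 198 counts in P1 and passed through P1. Their directions were thus largely set by the filter, and the values below describe these genes and not the class. Krt36, a type I hair keratin that mice also use in the tongue, had 0.25, 0.19 and 0.51 CPM in P1, 4.70, 13.4 and 10.3 CPM in CP1, and 29.7, 33.6, 21.1 and 30.5 CPM in CP2. The 3 lines were separate. It rose in CP1 (log2 4.92 ± 0.48, adjusted p = 2.855e-05) and in CP2 (6.52 ± 0.49, adjusted p = 3.997e-06), and CP2 exceeded CP1 by 1.60 ± 0.35 (adjusted p = 0.0050). Without CP1 replicates 2 and 3 the rise in CP1 was 3.91 and the excess of CP2 over CP1 was 2.61.

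Krt33b, a type I keratin of the hair cortex, had its P1 counts in replicate 1 alone. It had 0.06, 0 and 0 CPM in P1, 1.70, 1.30 and 2.35 CPM in CP1, and 2.98, 2.11, 2.60 and 1.86 CPM in CP2. With 2 counts in P1, the ratio of summed counts per library size was 80.1 in CP1 (exact 95% interval 21.8 to 668, counting error only) and 109 in CP2 (29.9 to 909). Both rises were called (adjusted p = 4.839e-05 and 1.819e-05). Krt33a, its neighbour, rose in CP1 (log2 2.51 ± 0.48, adjusted p = 0.0018) and in CP2 (3.39 ± 0.45, adjusted p = 1.483e-04), from 0.07 to 0.12 CPM in P1 to 0.35 to 0.93 CPM in CP1 and 0.82 to 1.67 CPM in CP2. Its rise in CP1 was 1.67 and not called without CP1 replicates 2 and 3 (adjusted p = 0.066), and CP2 minus CP1, at 0.87 ± 0.37 (adjusted p = 0.0796), was called at 1.21 without CP1 replicate 3 (adjusted p = 0.044).

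Krt34 and Krt31, further type I hair keratins of the same cluster, were low throughout. Krt34 had 0.03, 0 and 0 CPM in P1, 0.42, 0.65 and 2.15 CPM in CP1, and 0.15, 0.10, 0.05 and 0.23 CPM in CP2. Its ratio of summed counts was 93.3 in CP1 over P1 (16.3 to 3726, from 1 count in P1), and the rise was called (adjusted p = 8.251e-04), with a fitted log2 of 6.09 that was 5.12 without CP1 replicate 3. CP2 lay below CP1 by log2 -2.96 ± 0.69 (adjusted p = 0.0067), or -1.99 without CP1 replicate 3. In CP2 over P1, Krt34 missed the call (adjusted p = 0.0592) but gained it without CP1 replicate 1 (adjusted p = 0.0415) or 3 (adjusted p = 0.0177) and with DESeq2 (adjusted p = 0.0353). Krt31 rose in CP1 (log2 3.59 ± 0.88, adjusted p = 0.0077) and in CP2 (3.07 ± 0.89, adjusted p = 0.0138), from at most 0.12 CPM in P1 to 0.29 to 1.05 CPM in CP1 and 0.18 to 0.98 CPM in CP2. Without P1 replicate 1 these were 5.01 and 4.49, and the CP2 call was lost without P1 replicate 2 (2.79, adjusted p = 0.0522). Krt33a, Krt33b, Krt34 and Krt31 share 21.9% to 33.1% of their 50-base words with other genes, mainly with each other, so their counts are not independent and the member that rose is uncertain.

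Krt84, a type II hard keratin that mice use in the tongue, went the other way. It had 0.46, 2.37 and 3.91 CPM in P1, 0.07, 0 and 0 CPM in CP1, and 0, 0.05, 0 and 0 CPM in CP2. The counts were 198 in P1, 2 in CP1 and 1 in CP2, and the ratio of P1 over CP1 was 90.2 (24.7 to 750.3) and over CP2 179 (31.8 to 7116). Both falls were called (adjusted p = 9.455e-04 and 3.873e-04).

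Of 9 keratins of the inner root sheath, the sleeve around a growing hair, and its companion layer, 3 were tested. Krt72 and Krt73 passed the filter through CP2, so their direction was largely set by it, and Krt79 was highest in CP1. The 9 genes summed to 0.593 to 2.08 CPM in P1, 8.55, 2.73 and 4.01 CPM in CP1, and 2.72, 8.30, 6.07 and 6.05 CPM in CP2. These sums overlapped between the CP lines through Krt79, a keratin of the hair follicle opening placed in this class. Krt79 alone held 8.37, 2.53 and 3.85 CPM in CP1, and 0.26 to 1.67 CPM in CP2. Krt72, a type II keratin of the inner root sheath, had no count in P1 or CP1 and 0.87, 2.01, 1.83 and 2.75 CPM in CP2. Against a floor of 3 counts over the group, it was at least 57.8-fold higher in CP2 than in P1 and at least 52.7-fold higher than in CP1 (adjusted p = 4.172e-04 and 8.294e-04). Krt73, the next gene on chromosome 15 and of the same kind, had 0 to 0.07 CPM in P1, 0 to 0.04 CPM in CP1, and 1.18, 2.90, 2.14 and 1.58 CPM in CP2. Its ratio was 60.0 over P1 (20.2 to 294) and 82.0 over CP1 (22.4 to 683), and both rises were called (adjusted p = 4.954e-05 and 1.048e-04). Krt27, a type I keratin of the inner root sheath that failed the filter and was chosen after its values were seen, held 1 count in P1, 3 in CP1 and 43 in CP2, a ratio of 47.5 over P1 (8.08 to 1919) and 14.4 over CP1 (4.62 to 72.7). The other 5 untested keratins of this class held at most 18 counts in any line.

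Krt79, a type II keratin of the hair follicle opening, was highest in CP1, at 1.11, 0.53 and 1.90 CPM in P1, 8.37, 2.53 and 3.85 CPM in CP1, and 0.26, 1.67, 1.05 and 1.16 CPM in CP2. CP1 did not overlap the other lines. It rose in CP1 by log2 2.06 ± 0.65 (adjusted p = 0.0255), a call lost without CP1 replicate 1 (1.43), P1 replicate 1 (2.00) or P1 replicate 2 (1.69). CP2 was below CP1 at log2 -2.24 ± 0.60 (adjusted p = 0.0137), which was lost without CP1 replicate 1 (-1.62). CP2 minus P1 was -0.18 ± 0.62 (adjusted p = 0.825).

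Of 5 suprabasal keratins tested, 2 were higher in CP1 than in P1, against 22.4% of all genes. In CP2, 1 was higher and 2 lower than in P1, against 28.3% and 28.4% of all genes. In CP2, 3 were lower than in CP1, against 21.9% of all genes. Krt76, a type II keratin of the hard palate, had 0.74, 0.16 and 0.66 CPM in P1, 21, 8.38 and 22.4 CPM in CP1, and 1.59, 4.17, 2.78 and 3.49 CPM in CP2. All 3 lines were separate, and the CP1 tumour with the most urothelium transcripts, replicate 2, had the lowest CP1 value. Krt76 rose in CP1 (log2 5.05 ± 0.61, adjusted p = 1.132e-04) and in CP2 (2.54 ± 0.56, adjusted p = 0.0033), and CP2 was below CP1 by log2 -2.52 ± 0.48 (adjusted p = 0.0023). Krt76 had 47 counts in P1 and passed the filter on low counts through the CP tumours. Its direction against P1 was thus largely set by the filter.

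Krt13 and Krt4, which pair in mucosal layers such as those of the oesophagus, did not move together. Krt13, the type I chain, had 6.47, 11.9 and 25.3 CPM in P1, 44.9, 28.2 and 36.6 CPM in CP1, and 27.5, 16.7, 25.2 and 15.8 CPM in CP2. It rose in CP1 by log2 1.33 ± 0.43 (adjusted p = 0.029), which was 1.99 without P1 replicate 3 and lost without CP1 replicate 1 (1.15) or 3 (1.34) and without P1 replicate 1 (0.96) or 2 (1.18). A fit of P1 and CP1 alone lost it too (1.32, adjusted p = 0.0721). Without P1 replicate 3, Krt13 was also called higher in CP2 than in P1 (1.20, against 0.55 ± 0.41, adjusted p = 0.267) and lower in CP2 than in CP1 (-0.78 in both, adjusted p = 0.0432 against 0.136).

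Krt4, the type II chain, had 14.6, 7.17 and 20.7 CPM in P1, 4.31, 20.6 and 16.4 CPM in CP1, and 1.23, 3.88, 4.61 and 0.65 CPM in CP2. P1 and CP1 covered the same range (log2 -0.04 ± 0.71, adjusted p = 0.968). It fell by 2.45 ± 0.69 in CP2 against P1 (log2, adjusted p = 0.0127). CP2 against CP1 was -2.40 ± 0.69 (adjusted p = 0.0189), a call lost without CP1 replicate 2 (-1.99) or 3 (-2.26) and at -0.73 without both. Krt78, a type II keratin of stratified epithelia, had 3.79, 0.66 and 10.4 CPM in P1, 2.16, 2.73 and 4.94 CPM in CP1, and 0.21, 1.23, 0.78 and 0.09 CPM in CP2. It was lower in CP2 than in P1 (log2 -3.09 ± 0.91, adjusted p = 0.0150), or -3.75 without CP2 replicate 2, and the call was lost without P1 replicate 3 (-1.95). Its difference from CP1 (-2.49 ± 0.91, adjusted p = 0.0483) was lost in 7 of the 10 fits that left out a tumour (-2.08 to -2.73) and was -3.16 without CP2 replicate 2. Krt80, a type II keratin found near desmosomes, had 10.6, 4.77 and 4.45 CPM in P1, 1.66, 3.28 and 1.90 CPM in CP1, and 1.34, 1.57, 1.55 and 2.70 CPM in CP2. It fell in CP2 (log2 -1.88 ± 0.39, adjusted p = 0.0024) and in CP1 (-1.53 ± 0.42, adjusted p = 0.0138), a call lost in CP1 without its replicate 3 (-1.41, adjusted p = 0.0516) or without P1 replicates 1 and 2 (-0.99, adjusted p = 0.138).

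The share of all genes with each joint pattern of calls was not computed, so the counts below describe the 29 keratins only. Across the 29 genes and 3 comparisons, no pattern held more than 4 keratins. A fall in both CP lines with CP2 below CP1 was shown by 4 keratins. In 3 more, both CP lines were lower and did not differ by a call, and in 2 (Krt14 and Krt23) both were lower with CP2 above CP1. Both CP lines were higher in 5 keratins, the hair keratins Krt31, Krt33a, Krt33b and Krt36 with Krt76. All 5 passed the filter on low counts through the CP tumours. Krt15 was called higher in CP1 and lower in CP2, and Krt90 lower in CP1 and higher in CP2. For both, the call of CP2 against P1 was lost in 7 of the 10 fits that left out a tumour, and the rise of Krt15 in CP1 was 0.90 (adjusted p = 0.34) without CP1 replicates 2 and 3.

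The make-up of the keratin counts followed from these changes. Simple epithelial keratins held 96.1% to 97.9% of keratin counts in P1, 62.6% to 81.5% in CP1 and 34.5% to 61.1% in CP2. Basal keratins held 1.67% to 3.13% in P1, 7.13%, 34.0% and 27.9% in CP1 replicates 1, 2 and 3, and 11.4% to 25.2% in CP2. The hair shaft class held at most 0.0276% in P1, 0.629% to 0.94% in CP1 and 4.24% to 6.01% in CP2, and the 5 genes placed in no class, Krt42 and Krt90 among them, held 15.8% to 26.8% in CP2.

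**Figure D5:**
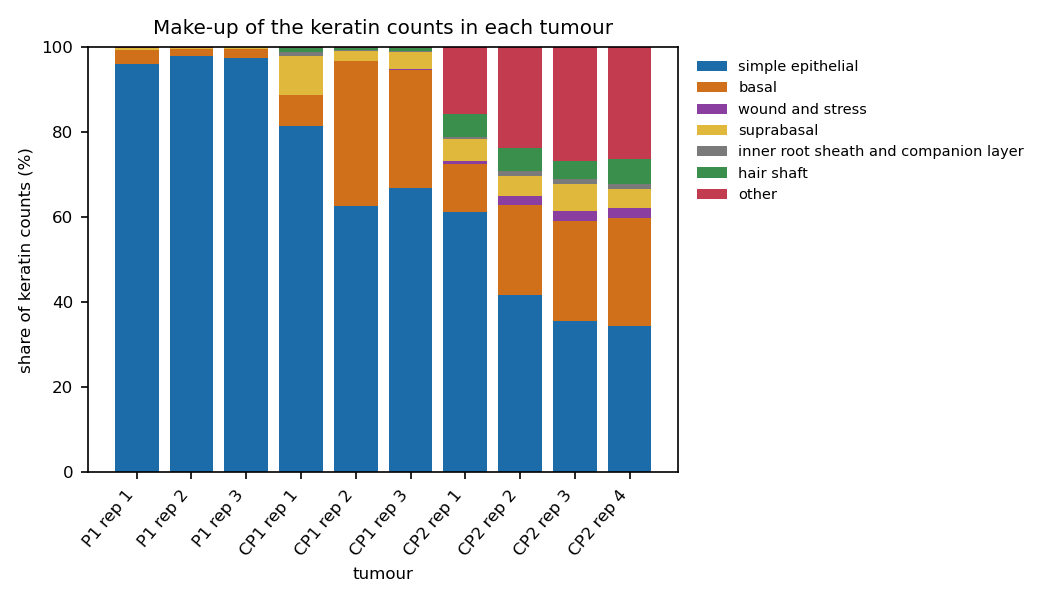
Share of keratin counts (%) held by each class of keratin in each of the 10 tumours, as stacked bars. Simple epithelial keratins fill nearly all of each P1 bar and 34.5% to 61.1% of the CP2 bars, and CP2 replicate 1 has the largest simple share in CP2.

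The order of levels per kilobase of the principal transcript differed between lines. In P1, Krt19 (1577 to 3714 CPM per kb), Krt8 (1486 to 3331) and Krt18 (1043 to 2282) led and overlapped. Krt7 came next at 268 to 428 CPM per kb and overlapped neither Krt18 above nor Krt14 below (96.6 to 203). That level of Krt7 rests on a transcript model of 4094 bases, the longest among the tested keratins. In CP1, Krt19 (203 to 381) and Krt18 (205 to 312) led and overlapped, followed by Krt15, Krt5, Krt8 and Krt7, whose ranges all overlapped. In CP2, Krt19 (85.1 to 132) overlapped Krt42 (60.5 to 96.0), and Krt42 overlapped Krt14 (37.0 to 72.7), with Krt8, Krt18 and Krt36 next.

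Type I and type II keratins bind each other in equal number, and the balance of their transcripts shifted. Summed CPM per kb of type I over type II keratins gave 1.61, 1.59 and 1.71 in P1, 7.79, 2.45 and 3.15 in CP1, and 4.40, 7.58, 7.77 and 8.78 in CP2. Every CP tumour lay above every P1 tumour. The ratio of Krt18 to Krt8 per kilobase was 0.651 to 0.702 in P1, 7.31, 1.99 and 3.56 in CP1, and 0.795 to 1.00 in CP2, so that CP1 stood apart from both other lines. The ratio of Krt19 to Krt8 was 1.02 to 1.11 in P1, 2.94 to 7.24 in CP1 and 2.00 to 8.50 in CP2. These ratios describe transcripts, and the shared words of Krt8 with its pseudogene limit those that include Krt8.

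Plakins and plaque proteins anchor keratin filaments. Of 9 tested, 5 were lower and 2 higher in CP1 than in P1, against 22.4% of all genes in each direction. In CP2, 7 were lower and 2 higher than in P1, against 28.4% and 28.3% of all genes, and 4 were lower and 0 higher than in CP1, against 21.9% and 21.3%. Eppk1, a further member of the list, was not analysed here. Dsp, which encodes desmoplakin, the link between keratins and desmosomes, had 324 to 340 CPM in P1, 231 to 255 CPM in CP1 and 114 to 152 CPM in CP2. It fell in CP1 (log2 -0.43 ± 0.12, adjusted p = 0.0126) and in CP2 (-1.35 ± 0.11, adjusted p = 6.113e-06). Pkp3, a plakophilin of the desmosome plaque, had 86.5 to 102 CPM in P1, 3.50, 14.6 and 11.7 CPM in CP1 and 2.83 to 4.91 CPM in CP2, and Pkp1 fell from 45.3 to 66.5 CPM in P1 to 3.43 to 5.95 CPM in CP1 and 2.37 to 11.5 CPM in CP2. Evpl, which encodes envoplakin, followed the CP1 tumours unevenly at 1.87, 43.2 and 23 CPM, against 32.5 to 34.5 CPM in P1 and 0.72 to 1.46 CPM in CP2. Dst and Plec, plakins that link filaments to hemidesmosomes and other structures, rose in both CP lines, Dst by log2 1.48 ± 0.20 in CP1 (adjusted p = 2.227e-04) and 0.62 ± 0.19 in CP2 (adjusted p = 0.0159), and Plec by 0.52 ± 0.17 (adjusted p = 0.0269) and 0.60 ± 0.16 (adjusted p = 0.0084).

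Of 13 other intermediate filament genes, 1 was higher and 3 lower in CP1 than in P1, and 2 higher and 4 lower in CP2. Against 22.4% of all genes in each direction in CP1 and 28.3% higher and 28.4% lower in CP2, these counts were near or below the background. Vim, which encodes vimentin of mesenchymal cells, had 1242, 1447 and 2076 CPM in P1, 4457, 4294 and 4831 CPM in CP1, and 3872, 3894, 3932 and 3424 CPM in CP2. It rose in CP1 (log2 1.51 ± 0.19, adjusted p = 1.342e-04) and in CP2 (1.25 ± 0.18, adjusted p = 2.232e-04), and the CP lines were not called different (-0.26 ± 0.17, adjusted p = 0.245). Prph, which encodes peripherin of neurons, had 0.44 to 3.18 CPM in P1, 0.53 to 6.62 CPM in CP1 and 53.6 to 68.8 CPM in CP2 (log2 5.49 ± 0.88 over P1, adjusted p = 4.772e-04, and 3.77 ± 0.79 over CP1, adjusted p = 0.0037). Des, the desmin of muscle, was lower in CP2, at 24.2 to 97.0 CPM, than in P1 and CP1 (log2 -2.66 ± 0.84, adjusted p = 0.0212, and -3.67 ± 0.87, adjusted p = 0.0074), where it spread from 55.6 to 1112 CPM. Nefh, a neurofilament gene, had 10.4, 346 and 4.93 CPM in P1, most of it in replicate 2, and at most 0.55 CPM in the CP lines. Lmnb2, which encodes a nuclear lamin, was lower in CP1 (log2 -0.49 ± 0.12, adjusted p = 0.0092) and in CP2 (-0.37 ± 0.12, adjusted p = 0.0199).

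Of 15 regulators of keratin genes and filaments, 6 were lower and 4 higher in CP1 than in P1, 8 lower and 2 higher in CP2 than in P1, and 7 lower and 1 higher in CP2 than in CP1. The shares of all genes lower and higher were 22.4% and 22.4%, 28.4% and 28.3%, and 21.9% and 21.3% in these comparisons. Elf3, an ETS factor of epithelial differentiation, had 256, 428 and 590 CPM in P1, 17.1, 51.7 and 52.1 CPM in CP1 and 2.51 to 5.96 CPM in CP2. It fell in CP1 (log2 -3.40 ± 0.48, adjusted p = 2.898e-04) and in CP2 (-6.61 ± 0.50, adjusted p = 4.235e-06), with a step between the CP lines of -3.21 ± 0.44 (adjusted p = 3.779e-04). Ehf, a related ETS factor, fell in CP1 (log2 -3.64 ± 0.26, adjusted p = 4.997e-06) and in CP2 (-4.72 ± 0.25, adjusted p = 6.038e-07). Klf5, a factor of basal and luminal cells, was the regulator higher in CP2 than in CP1 (log2 0.71 ± 0.16, adjusted p = 0.0061), at 50.5 to 68.2 against 31.1 to 42.7 CPM, and P1 stood above both at 162 to 225 CPM. Grhl3, a factor of the outer layers of skin and urothelium, had 0.09 to 0.19 CPM in P1, 1.91, 27.7 and 19.8 CPM in CP1 and 11.3 to 13.9 CPM in CP2. Its rise was called in both (log2 6.71 ± 0.93, adjusted p = 2.660e-04, and 6.28 ± 0.91, adjusted p = 2.469e-04). Grhl3 passed the filter on low counts through the CP tumours, so its direction against P1 was largely set by it. The 5 urothelium genes summed to at most 9.08 CPM in CP2, and the whole list of 10, which includes Grhl3, to 141 to 177 CPM. The part of bladder tissue in the level of Grhl3 was not tested. Tfap2a, an AP-2 factor of surface ectoderm, was higher in both CP lines as well, by log2 1.10 ± 0.14 and 1.36 ± 0.14 (adjusted p = 1.707e-04 and 2.442e-05). Trp63 was lower in CP2 than in CP1 (log2 -2.53 ± 0.63, adjusted p = 0.0092), and CP2 minus P1 was -0.34 ± 0.63 (adjusted p = 0.669).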

How the data were processed

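RNA was sequenced from 10 prostate orthografts of the lines P1 (3), CP1 (3) and CP2 (4). The deposited values are whole-number counts per Ensembl gene, 1 table per tumour and not normalised. The submitters' processing notes name the build GRCm38.p3 and list HTSeq 0.6.0, TopHat2 2.1.0, Bowtie2 2.2.6.0, FastQC 0.11.4, DESeq2 1.14.1 and R 3.2.3. The sources used here do not give their parameters, the annotation or the use of strand. GENCODE M21 (GRCm38) matched 46574 of 47069 gene IDs, and 495 have no symbol here. Part of the genotypes is not reported here.

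Counts were tested with edgeR 4.0.16 (limma 3.58.1, R 4.3.3) after filterByExpr (minimum count 10, minimum total 15), which kept 17644 genes, and TMM scaling. A quasi-likelihood fit held all 10 tumours with a mean per line, and calls needed an adjusted p (Benjamini-Hochberg, over all genes tested) below 0.05. The code was tested on simulated data. Adjusted p-values come from this fit, except where a sentence names tumours left out, the compared lines alone or DESeq2 1.42.0, each of which is a separate fit. Library sizes scaled by TMM gave the CPM, which were divided for CPM per kb by the principal transcript's length. Folds against groups with 3 counts or fewer come from summed counts, with an exact 95% binomial interval or a floor of 3 counts over the group. Depth limits rare keratins most in CP2, and floors and intervals cover counting error only.

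Keratins were grouped by known place of expression. The members, the lists (plakins, other intermediate filaments, regulators, and markers of urothelium, seminal vesicle, mesothelium, epithelium, prostate, fibroblasts and immune cells) and several alternatives were chosen with earlier results of these data known. Named keratins are those with a mean of at least 1 CPM in a line, to which Krt31, Krt6b and Krt27 were added. From the plakin, filament and regulator lists, the 2 largest called rises and 2 largest called falls per comparison were named where a line's mean reached 5 CPM, together with Vim, Dsp, Trp63, Epcam and Cdh1. Words of 50 bases shared between transcripts of GENCODE M21 mark genes whose reads counting could split. Alternatives were other scalings, DESeq2, no filter, only the lines compared, each tumour left out and pairs of tumours left out. A further alternative used the title number as a block, in the P1 and CP2 tumours that share one.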

Additional observations from a re-analysis of the deposited data

Results flagged for a closer look

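In CP2, 3 keratins had replicate 1 far from the other 3 tumours. Its level was 5.60 CPM for Krt20, 68.7 CPM for Krt18 and 2.72 CPM for Krt17, high for the first pair and low for Krt17. This is the tumour whose title names CP1. Krt84 had 0.0491 CPM in CP2 replicate 2 and 0 in the rest, which is a single count. Such gaps were looked for in 29 keratins among the 4 CP2 tumours, and chance gives about 1 in 20.

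For Krt15 and Krt90, the CP1 and CP2 calls against P1 had opposite signs. CP2 minus CP1 was log2 -6.13 for Krt15 and 8.34 for Krt90, which restates this choice and is no independent evidence of it. For both genes the call of CP2 against P1 was lost in 7 of the 10 fits that left out a tumour, and CP1 minus P1 alone was -7.55 for Krt90.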

How the results depend on the processing

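With 1 tumour left out at a time, the keratins called higher and lower numbered 8 to 10 and 10 to 13 in CP1 against P1, 8 to 11 and 10 to 12 in CP2 against P1, and 9 to 11 and 8 to 12 in CP2 against CP1. Of 87 keratin results, 64 were called, 13 of these were lost in at least 1 such fit and 8 others were gained. Without CP1 replicates 2 and 3, 6 keratins were higher in CP1 than in P1, 5 were lower in CP2 than in CP1, and Krt5 in CP2 against CP1 stood at 0.04 instead of -3.32 (adjusted p = 0.979). Such a fit leaves 1 CP1 tumour, which is assumed to vary like the other groups. Without P1 replicates 1 and 2, 6 were higher in CP1. Apart from what these fits leave out, the cause was not tested. All other counts of calls, under 3 scalings, DESeq2, no filter and fits of the compared lines alone, stayed within 1.5 times the counts reported. The summed keratins on unscaled totals were 12183, 1859 and 668 CPM in P1, CP1 and CP2.

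The numbers 19 and 21 in the titles are shared by P1 and CP2, but the labels do not say what they mark, and the deviations of same-numbered tumours correlated at -0.173 and -0.0625. Fitted on all P1 and CP2 tumours without a block, 7 keratins were higher and 11 lower in CP2 than in P1. A fit with the title number as a replicate block gave 7 and 10. It held only the tumours that share a number, P1 replicates 1 and 3 and CP2 replicates 3 and 4. Effects of the block and of the tumours left out cannot be told apart. With the block, Krt80 stood at -1.74 (adjusted p = 0.0842), Krt15 at -2.47 (adjusted p = 0.0735) and Krt90 at 0.88 (adjusted p = 0.194), none of them called (Krt90 was not called in the fit without a block either, at 0.77), and Krt6a was called at -4.10 (adjusted p = 0.0494). Depth limits the 24 keratins that were not tested and those with few counts.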
